A study of Oryza sativa with 39 samples.

Results

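Ascorbate peroxidases (APX) are the heme enzymes that reduce hydrogen peroxide to water in plant cells, with ascorbate as the electron donor. Different genes of the family encode isoforms of the cytosol, the peroxisome, the mitochondria and the chloroplast, so that peroxide is removed close to where it is formed. In leaves, much of it comes from photosynthesis in the chloroplast and from photorespiration in the peroxisome. The oxidized ascorbate is returned to its reduced form by reductases that draw on NADPH and glutathione.

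The 8 APX genes of rice were followed by their locus identifiers in a set of 109715 identifiers, of which 44421 had a read in at least 1 library. They were APX1 (OS03G0285700) and APX2 (OS07G0694700) of the cytosol, APX3 (OS04G0223300) and APX4 (OS08G0549100) of the peroxisome, APX5 (OS12G0178100) and APX6 (OS12G0178200) of the mitochondria, and APX7 (OS04G0434800) and APX8 (OS02G0553200) of the chloroplast. The members were chosen by name and compartment and not by their values, though with earlier results of these data known.

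The study asked whether genetic engineering (GE) changes leaf gene expression beyond conventional cross-breeding, and sequenced leaf RNA of 13 rice lines with 3 libraries each, 39 in all. A library pooled leaf sections from the second leaf blade of 5 plants of the same line, taken at an age of 5 weeks during tillering. The 7 Xian/Indica (XI) lines were MH63, an untransformed restorer variety, T1C-19 and HH1, GE lines made from MH63, and XIY63, XXY63, SY63 and JY63, bred by crossing MH63 with other varieties. The 6 Geng/Japonica (GJ) lines were XS11, an untransformed variety, KMD1 and KMD2, GE lines made from XS11, and CJ03, JH1 and T202, bred by crossing XS11 with other varieties. The GE lines carry *Bacillus thuringiensis* (Bt) insecticidal genes introduced with *Agrobacterium*. The transgene is *cry1C* under the maize ubiquitin promoter in T1C-19, fused *cry1Ab/Ac* under the rice actin1 promoter in HH1, and the same *cry1Ab* under the maize ubiquitin promoter in KMD1 and KMD2, which are independent events. Each GE line is 1 transformation event, and the 7 conventional lines share only part of their genome with the parent named here. The transgenes themselves were not analysed here.

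Values were FPKM, the fragments of a gene divided by its length and by a factor of the library, so that levels can be compared between genes. That factor was 0.855 to 1.19 times the library's reads on genes (median 1.03), on average 0.875 times in XS11, the lowest of the lines, and 1.05 times in MH63. How the factor was derived is not given in the sources used here, so levels between lines depend on it. The libraries held 3989871 to 8318607 reads on genes, with HH1 the shallowest line (4187467 ± 182592, SD, n = 3) and MH63 the deepest (7520590 ± 954640, SD, n = 3). These reads were recovered from the FPKM, and the paper reports many more clean reads per library, most of them mapped. The reason for the gap was not examined. Replicates of a line correlated at 0.950 to 0.974 across genes, and no pair of replicates agreed within sampling noise. Of 6 leaf markers of photosynthesis, 2 were above 0 in every library, 1 was listed at 0 in every library, and 4 had a median under 1 FPKM, so the label of leaf tissue rests on few of the genes meant to check it. Both root markers were listed at 0 in every library. Such zeros were common: 36.8% of 37830 annotated rice loci were at 0 in all 39 libraries.

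Reads of 5 members were present in all 39 libraries, and the other 3 were listed at 0 in every one. APX5 and APX6, the mitochondrial pair with neighbouring identifiers, and APX8, a chloroplast isoform, made up the second group. As a leaf marker was also listed at 0 throughout, a zero in these files cannot be read as absence of the transcript, and no comparison was made for these 3 genes. Of the mitochondrial isoforms nothing was measured, and of the chloroplast isoforms only APX7.

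APX2 was by far the most abundant of the 5 members with reads. Its mean over the 39 libraries was 3676 FPKM, the 7th highest of all identifiers with a read, and it ranged from 2453 FPKM in a T202 library to 4903 FPKM in an MH63 library. Ranks hold only among the values as listed, in which just 2 of the 6 leaf markers had a median of at least 1 FPKM. APX4, the abundant peroxisomal isoform, had a mean of 1041 FPKM (rank 82, range 671 to 1505), and APX1, the other cytosolic isoform, 919 FPKM (rank 95, range 689 to 1384). The remaining pair lay far below. APX7 had a mean of 43.0 FPKM (rank 2777, range 7.88 to 111), and APX3, the second peroxisomal isoform, 8.07 FPKM (rank 7337, range 0.477 to 62.9). Reads behind these values ran from 12485 to 40493 per library for APX2 but only from 62 to 1129 for APX7 and from 3 to 385 for APX3, so the last is the least precisely measured.

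**Figure D1:**
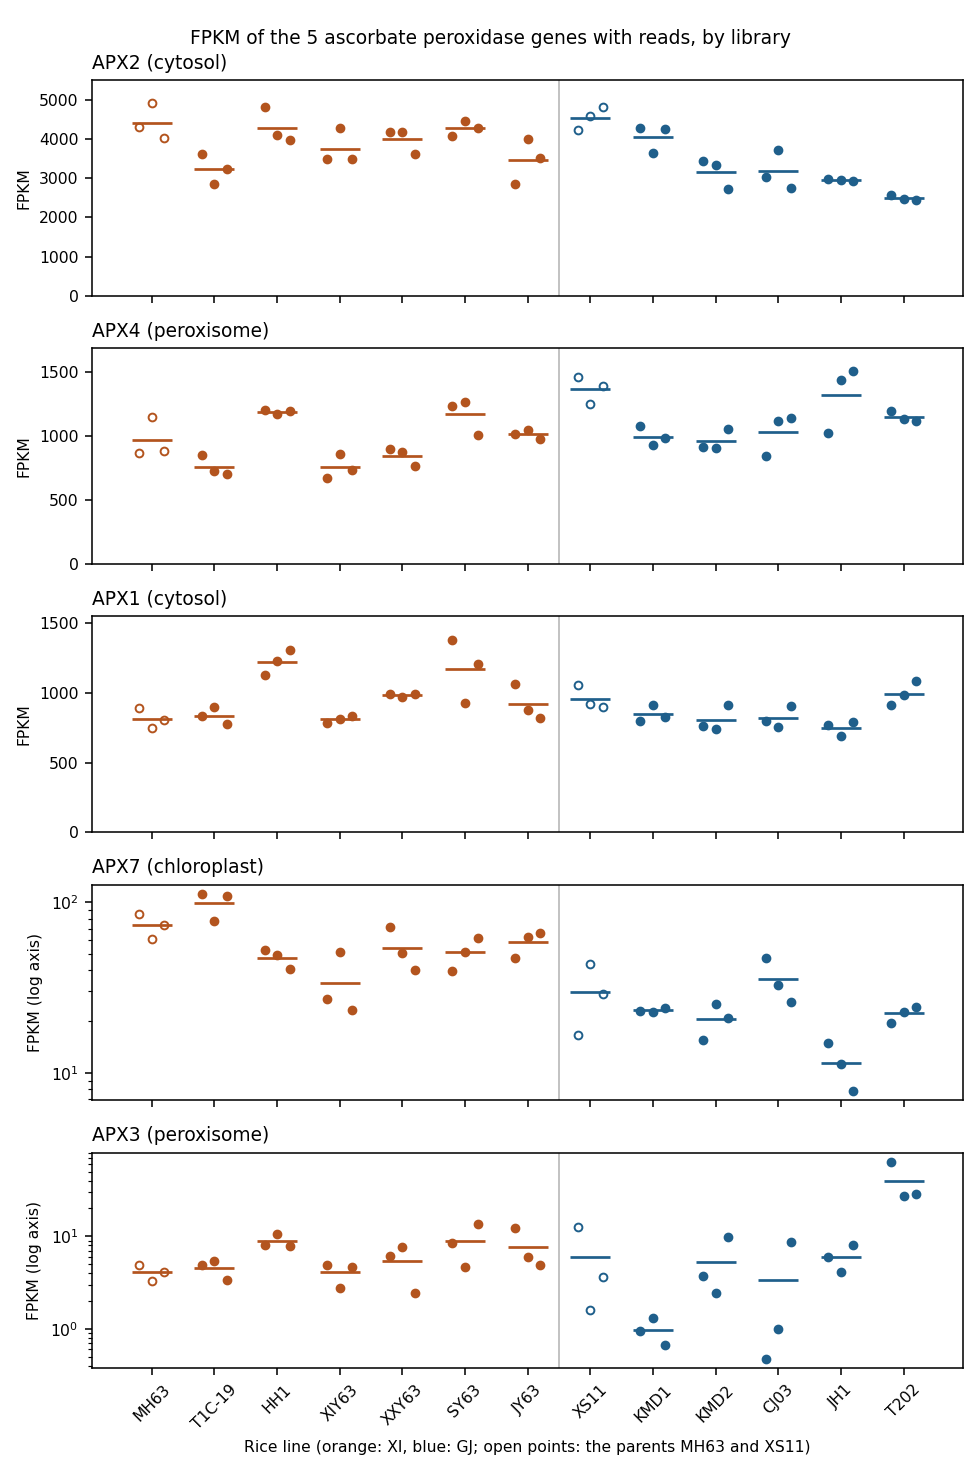
FPKM of the 5 ascorbate peroxidase genes with reads in each of the 39 libraries, by rice line. Points are libraries, horizontal bars are line means (n = 3), orange marks XI and blue GJ lines, open points mark the parents, and APX7 and APX3 have log axes. The 3 T202 libraries of APX3 (27.4 to 62.9 FPKM) lie above all other libraries, and APX7 is lower in most GJ libraries.

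Within a line, replicates differed little for the 3 abundant genes and widely for APX3. The median coefficient of variation over the 13 lines was 8.39% for APX1, 8.77% for APX4, 10.3% for APX2, 22.4% for APX7 and 49.2% for APX3. Between the highest and the lowest line mean the ratio was 1.63 for APX1, 1.81 for APX4, 1.82 for APX2, 8.69 for APX7 and 40.7 for APX3. The abundant cytosolic and peroxisomal genes varied less between lines than the weakly expressed ones, on the FPKM scale.

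In the order of lines by APX2, XS11 (4540 ± 292 FPKM, SD, n = 3) and MH63 (4408 ± 453) came first and T202 last (2497 ± 70.9). Both untransformed parents led the order on the deposited scale, but with the reads on genes as the divisor MH63 came first and XS11 the 7th (3973 ± 307). Every neighbouring pair of lines in it overlapped in its libraries except 1 of the 12, that of JH1 (2922 to 2991 FPKM) and T202 (2453 to 2579 FPKM).

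For APX4 the order on the deposited scale ran from XS11 (1368 ± 110 FPKM, SD, n = 3) and JH1 (1321 ± 261) to T1C-19 (762 ± 82.4) and XIY63 (757 ± 97.0), and 11 of the 12 neighbouring pairs overlapped. For APX1 it ran from HH1 (1223 ± 88.3 FPKM, SD, n = 3) and SY63 (1174 ± 229) to KMD2 (806 ± 92.9) and JH1 (751 ± 54.1), with overlap in all 12 pairs. Neither order separated the subspecies.

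For APX7 the 6 highest line means were all XI. T1C-19 came first (98.9 ± 18.5 FPKM, SD, n = 3), followed by MH63 (73.0 ± 12.1), JY63 (58.4 ± 10.1), XXY63 (54.2 ± 16.3), SY63 (50.9 ± 11.4) and HH1 (47.3 ± 5.92). The GJ line CJ03 (35.5 ± 10.8) stood just above the last XI line, XIY63 (33.8 ± 15.2). Below it were XS11 (29.6 ± 13.3), KMD1 (23.3 ± 0.563), T202 (22.3 ± 2.39), KMD2 (20.6 ± 4.89) and JH1 (11.4 ± 3.54), and only the step from KMD2 to JH1 was free of overlap.

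For APX3, T202 (39.6 ± 20.1 FPKM, SD, n = 3) stood apart from the next line, SY63 (8.92 ± 4.50), without overlap. All 12 other lines had means under 9 FPKM. KMD1 was last with 0.953, 1.31 and 0.663 FPKM in its 3 libraries, from 4 to 8 reads each.

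Summed over the 5 members with reads, the lines held from 4705 ± 71.5 FPKM (T202) to 6903 ± 192 FPKM (XS11; SD, n = 3). The shares below are of this sum, which holds nothing of APX8 or of the mitochondrial isoforms. APX2 alone gave 53.1% ± 0.951 of this sum in T202 and 70.3% ± 1.05 in MH63, the lowest and highest lines. The cytosolic pair gave from 73.6% (JH1) to 85.2% (XIY63). The peroxisomal pair, nearly all of it APX4, ran from 14.2% ± 0.547 in XIY63 to 26.2% ± 4.15 in JH1, with T202 close by at 25.3% ± 1.01. APX7 gave from 0.228% ± 0.0806 in JH1 to 1.99% ± 0.269 in T1C-19. Within the cytosolic pair, the ratio of APX2 to APX1 was 5.44 ± 0.953 in MH63 and 2.52 ± 0.275 in T202. Within the peroxisomal pair, the ratio of APX4 to APX3 was 33.2 ± 12.3 in T202 and 1107 ± 387 in KMD1.

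**Figure D2:**
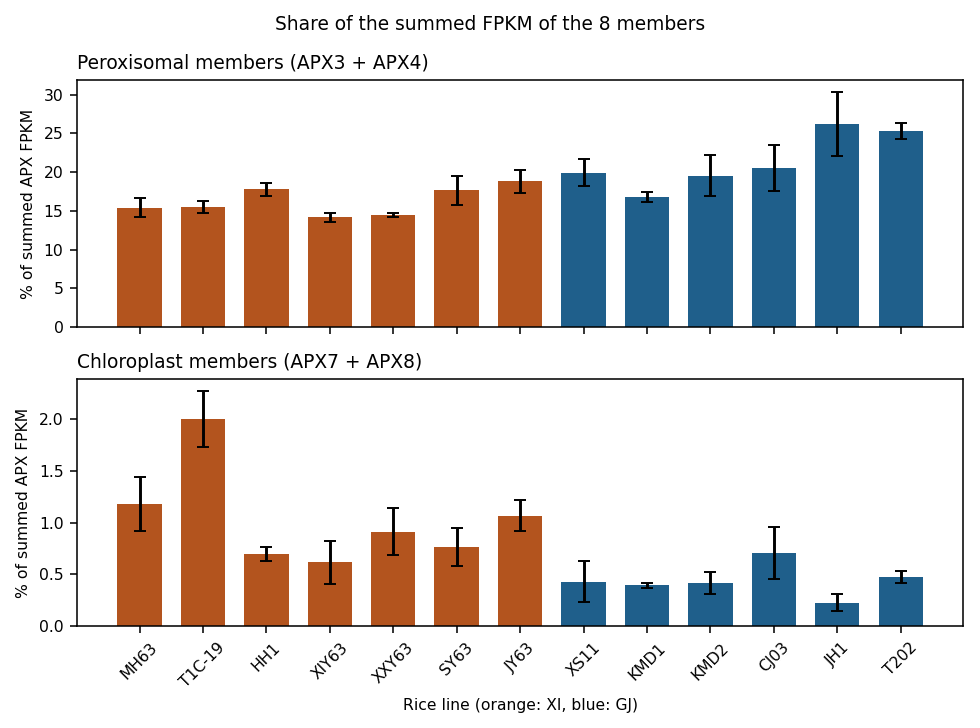
Share of the summed FPKM of the 5 members with reads in each rice line, in percent. The other 3 of the 8 members, listed at 0, add nothing to the sum. The upper panel shows the peroxisomal pair and the lower panel APX7, the only chloroplast member with reads. Bars are means of 3 libraries with SD, orange for XI and blue for GJ. The peroxisomal share peaks in JH1 (26.2%) and T202 (25.3%), and the chloroplast share, which is APX7 alone, peaks in T1C-19 (1.99%).

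The first comparison asked whether a line differed from the variety it was made from. Across the 11 line/parent comparisons and the 5 genes with reads, only 2 of 55 differences were called, that is, passed an adjusted p of 0.05 with a fold change of at least 2 on the log2(FPKM + 1) scale (limma over all genes, Benjamini-Hochberg). Over all genes the share called was 7.88%. They were APX3, higher in T202 than in XS11, and APX7, lower in XIY63 than in MH63. Neither was in a GE line, but APX3 in HH1/MH63, a GE line, was also past a fold of 2 with a pseudocount of 0.1 (log2 fold change 1.09, adjusted p = 0.00916, limma) and with voom on the recovered reads (1.08, adjusted p = 0.00851). Its mean FPKM in HH1 was 2.14 times that in MH63. With all 39 libraries in 1 model it did not pass at any fold (adjusted p = 0.174, limma). At the same adjusted p with any fold change, 11 of 55 passed, against 13.2% of all genes, 3 higher and 8 lower than the parent, and 7 of 55 with the reads on genes as the divisor, an alternative chosen after seeing the data. The 6 comparisons with MH63 share its 3 libraries, and the 5 with XS11 share those of XS11, so a high or low parent moves all of its comparisons together.

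**Figure D3:**
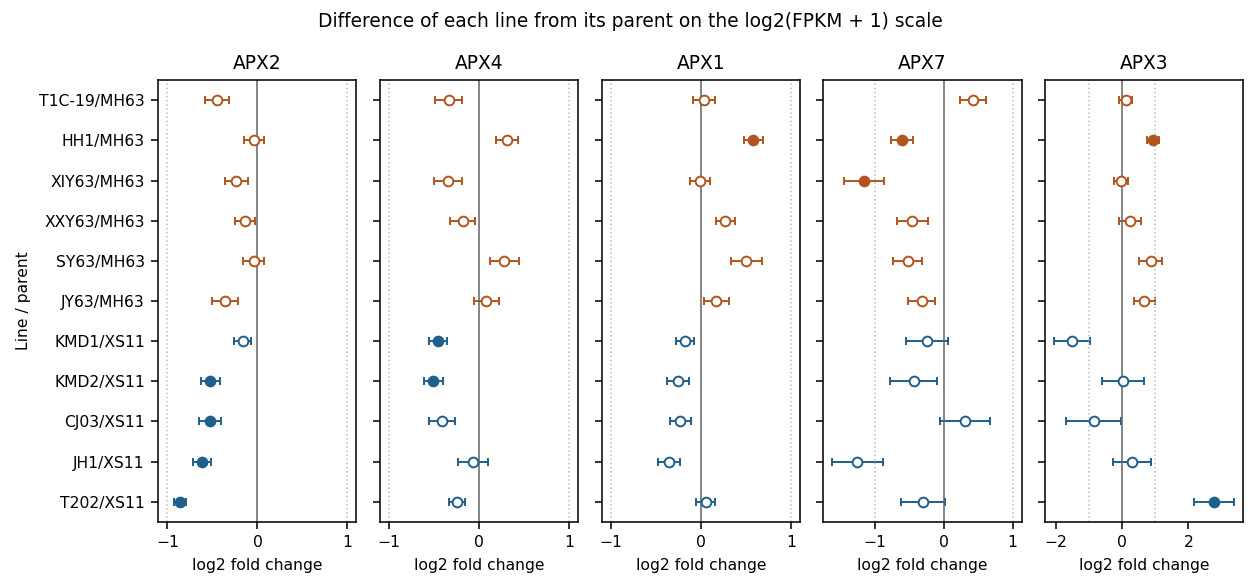
Difference of each of the 11 lines from its parent for the 5 genes with reads, as log2 fold change on the log2(FPKM + 1) scale with its standard error (bars). Filled points passed an adjusted p of 0.05 at any fold, dotted lines mark a fold of 2, orange comparisons are with MH63 and blue with XS11, and the APX7 and APX3 panels have wider axes. All 11 APX2 points lie below 0, though KMD1/XS11 is 0.18 after rescaling to the same total, and the APX3 point of T202/XS11 lies furthest out at 2.78.

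APX2, the main cytosolic isoform, passed at any fold in 4 comparisons, all of GJ lines and all lower than XS11. Over all genes, 14.4% passed at any fold in T202/XS11, 3.21% in JH1/XS11, 24.4% in KMD2/XS11 and 14.4% in CJ03/XS11. XS11 libraries held 4225, 4594 and 4800 FPKM. T202 libraries held 2579, 2460 and 2453 FPKM, well below every XS11 library, a log2 fold change of −0.86 (SE 0.07, adjusted p = 0.00024, limma). JH1 libraries held 2991, 2963 and 2922 FPKM, again without overlap (log2 fold change −0.62, SE 0.10, adjusted p = 0.0126, limma). KMD2 libraries held 3430, 3333 and 2732 FPKM and CJ03 libraries 3041, 3721 and 2750 FPKM, both also below all 3 XS11 libraries. Their log2 fold changes were −0.53 (SE 0.10, adjusted p = 0.0134, limma) in KMD2/XS11 and −0.53 (SE 0.12, adjusted p = 0.0324, limma) in CJ03/XS11. T202 and KMD2 passed with each of the 6 libraries left out in turn, whereas JH1 and CJ03 passed in only 1 of the 6 (adjusted p up to 0.133 and 0.126, limma). Neither JH1 nor CJ03 passed with the default limma trend (0.0847 and 0.0738), and with the reads on genes as the divisor T202 and JH1 passed and KMD2 (−0.19) and CJ03 (−0.30) did not.

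In the GE line KMD1, which carries the same transgene as KMD2, APX2 did not pass (4287, 3638 and 4241 FPKM, log2 fold change −0.16, adjusted p = 0.261, limma). None of the 6 XI lines passed for APX2 when fitted with its parent alone, though T1C-19 (adjusted p = 0.0236, limma) and JY63 (0.0404) did with all 39 libraries in 1 model. Their log2 fold changes from MH63 ran from −0.45 in T1C-19 (adjusted p = 0.117, limma) to −0.04 in HH1 and in SY63. The log2 fold change of APX2 was thus below 0 in all 11 comparisons on the deposited scale, but in KMD1/XS11 it was 0.18 after rescaling every library to the same total and 0.09 with the reads on genes as the divisor. Under that rescaling only T202/XS11 of the 4 still passed, HH1/MH63 passed instead (−0.28, adjusted p = 0.0465, limma), and KMD2/XS11 moved to −0.06 (adjusted p = 0.76, limma), where the rescaling itself moved the median of all genes by 0.335.

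APX4, the main peroxisomal isoform, was lower than XS11 in both GE lines of that background at any fold, which 8.01% of all genes passed in KMD1/XS11 and 24.4% in KMD2/XS11. XS11 libraries held 1465, 1248 and 1391 FPKM, KMD1 libraries 1076, 928 and 983, and KMD2 libraries 915, 909 and 1058, so that neither GE line overlapped its parent. The log2 fold changes were −0.46 in KMD1/XS11 (SE 0.10, adjusted p = 0.0388, limma) and −0.51 in KMD2/XS11 (SE 0.10, adjusted p = 0.0147, limma). Neither passed after rescaling to the same total (−0.11 and −0.05) or with the reads on genes as the divisor (−0.21 and −0.17). With 1 library left out, KMD1/XS11 passed in 1 of 6 fits (adjusted p up to 0.138, limma; 0.0856 with no filter on low values) and KMD2 in 3 of 6 (up to 0.0628). The conventional lines lay at 1035 ± 165 FPKM in CJ03, 1150 ± 40.7 in T202 and 1321 ± 261 in JH1 (SD, n = 3). The CJ03 and T202 libraries also lay below all XS11 libraries, while those of JH1 overlapped them. None of these lines passed when fitted with XS11 alone. CJ03 did with all 39 libraries in 1 model (adjusted p = 0.0194, limma).

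In HH1, the GE line of MH63 with a fused transgene, 3 of the 5 members passed at any fold, against 38.5% of all genes. APX1 libraries held 1132, 1228 and 1308 FPKM in HH1 and 896, 750 and 806 FPKM in MH63, without overlap (log2 fold change 0.58, SE 0.11, adjusted p = 0.00471, limma). APX3 was also higher, with 8.07, 10.6 and 7.78 FPKM against 4.93, 3.27 and 4.15 FPKM (log2 fold change 0.94, SE 0.19, adjusted p = 0.00642, limma). APX7 was lower, with 52.2, 49.1 and 40.7 FPKM against 84.8, 60.7 and 73.6 FPKM (log2 fold change −0.61, SE 0.16, adjusted p = 0.0200, limma). The APX1 difference did not pass after rescaling to the same total (0.34, adjusted p = 0.0749, limma), and APX7 passed in 3 of 6 fits with 1 library left out (up to 0.0622). With all 39 libraries in 1 model, neither APX3 (adjusted p = 0.174, limma) nor APX7 (0.0934) passed. APX3 rested on 35 to 45 reads per HH1 library and 22 to 44 per MH63 library. HH1 and MH63 are the shallowest and the deepest line. Whether depth plays a part was not tested.

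T1C-19, the other GE line of MH63, had no member past the adjusted p, where 2.91% of all genes passed. Its APX7 libraries held 111, 77.6 and 108 FPKM, overlapping those of MH63 (log2 fold change 0.43, SE 0.19, adjusted p = 0.239, limma). T1C-19 and HH1 thus stood on opposite sides of MH63 for this chloroplast gene, at the top and in the middle of the order of lines, though only HH1 passed against MH63 and the 2 GE lines were not tested against each other.

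In the conventional XI line XIY63, APX7 was lower than in MH63, in a comparison where 8.73% of all genes were called and 14.1% passed at any fold. Its libraries held 26.9, 51.2 and 23.3 FPKM, all below the lowest MH63 library at 60.7 FPKM (log2 fold change −1.16, SE 0.29, adjusted p = 0.0385, limma). All 12 libraries of the 4 conventional XI lines were below the MH63 mean for APX7, but only XIY63 passed. The other 3 lines, in which 5.95% (XXY63), 12.2% (SY63) and 7.88% (JY63) of all genes passed at any fold, had log2 fold changes of −0.52 in SY63, −0.45 in XXY63 and −0.32 in JY63. The XIY63 call was lost when any of 5 of the 6 libraries was left out (adjusted p up to 0.129), though the log2 fold change stayed between −1.49 and −0.94.

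APX3 gave the largest log2 fold change among the members, in T202 against XS11, in a comparison where 9.69% of all genes were called. T202 libraries held 62.9, 27.4 and 28.6 FPKM, from 139 to 385 reads, and XS11 libraries 12.7, 1.61 and 3.68 FPKM, from 8 to 63 reads. The groups did not overlap, although XS11 itself spread over a wide range (log2 fold change 2.78, SE 0.61, adjusted p = 0.0226, limma). Leaving out any T202 library, or the replicate of XS11 at 3.68 FPKM, took the adjusted p to between 0.0528 and 0.0655, with log2 fold changes from 2.24 to 3.43 over all 6 libraries left out in turn. In the same line APX2 was the lowest of all lines, so that the 2 genes differed from XS11 in opposite directions.

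JH1 had the lowest APX7 level of any line, 15.0, 11.3 and 7.88 FPKM against 16.6, 43.2 and 29.1 FPKM in XS11. The groups did not overlap, but the log2 fold change of −1.25 (SE 0.36) did not pass (adjusted p = 0.158, limma). KMD1 had a still larger log2 fold change for APX3, −1.49 (SE 0.55), which did not pass either (adjusted p = 0.118, limma), with 4 to 8 reads per KMD1 library. Libraries of line and parent did not overlap in 23 of the 55 comparisons, against 34.2% of all genes.

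The 4 GE lines could also be set against the spread of the other lines of their subspecies. Of the 20 GE line means, 7 lay outside the range of the non-GE lines of the same subspecies, a description over 5 XI and 4 GJ lines with no test. Over 26493 genes the share of GE line means outside was 41.8%. HH1 was above it for APX1 and APX4, and T1C-19 was below it for APX2 and above it for APX7. KMD1 was below it for APX3 and APX4, and KMD2 for APX4. For APX4 in HH1 the margin was small, 1191 ± 17.0 FPKM against 1170 ± 142 FPKM in SY63 (SD, n = 3). With the reads on genes as the divisor 8 lay outside: KMD2 was then inside for APX4, while T1C-19 for APX4 and KMD1 for APX2 were outside.

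The second comparison asked whether the subspecies differ. Between the 13 line means, APX7 was the only member called, in a comparison in which 19.9% of all genes were called. In this fit APX7 was also the only one past the adjusted p at any fold, where 39.5% of all genes passed. Its mean over lines was 23.8 FPKM in GJ and 59.5 FPKM in XI, a log2 fold change of −1.30 in GJ lines/XI lines (SE 0.27, adjusted p = 0.0014, limma on line means). The 18 GJ libraries ran from 7.88 to 47.3 FPKM with a median of 23.0, and the 21 XI libraries from 23.3 to 111 FPKM with a median of 52.2. The groups overlapped in part: 10 GJ libraries were below the lowest XI library and 15 XI libraries above the highest GJ library. APX7 stayed called without the 4 GE lines (log2 fold change −1.18, adjusted p = 0.0184, limma) and without any single line (−1.43 to −1.11). Lines of a subspecies all descend from the same parent, so they are related units, and subspecies and pedigree cannot be told apart. In pooled leaf sections, fewer cells of a type and less RNA per cell cannot be told apart either.

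The other members showed smaller differences between subspecies, none of which passed in this fit. The log2 fold changes in GJ lines/XI lines were 0.25 for APX4, −0.15 for APX1, −0.22 for APX2 and −0.15 for APX3. Over 7 alternative settings with all libraries, APX1 and APX2 did pass at any fold in places. Their lowest adjusted p was 0.0102 for APX1 and 0.0285 for APX2 (limma), with log2 fold changes down to −0.32 and −0.39. Markers of leaf condition were compared without a test, and their summed ranges over libraries overlapped between the 2 subspecies. The summed level of the 2 senescence markers, 1 of which was above 0 in every library, was 19.9 to 438 FPKM in XI and 6.12 to 34.7 FPKM in GJ libraries. That sum was nearly all OS09G0532000, whose top value was JY63 replicate 2, with 78.7 and 91.9 FPKM in the other JY63 libraries. The overlap came only from MH63 replicate 2 (19.9 FPKM). Line means of this marker did not overlap. They ran from 53.7 (MH63) to 203 FPKM (JY63) in XI and from 6.65 (KMD2) to 22.6 FPKM (T202) in GJ. The summed level of the 6 leaf markers was 880 to 2551 FPKM in XI and 1276 to 4305 FPKM in GJ libraries. Most of this was OS01G0869800 (859 to 4185 FPKM over all libraries). The part of these markers in the APX7 difference was not tested.

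The parents themselves showed the same gene. APX7 held 16.6, 43.2 and 29.1 FPKM in XS11 and 84.8, 60.7 and 73.6 FPKM in MH63, without overlap, and was called in XS11/MH63 (log2 fold change −1.36, SE 0.34, adjusted p = 0.0144, limma), as were 33.8% of all genes. APX4 was higher in XS11 at any fold (log2 fold change 0.51, SE 0.13, adjusted p = 0.0187, limma), as 52.9% of all genes passed in either direction. It did not pass after rescaling to the same total or with the reads on genes as the divisor, and passed in 2 of 6 fits with 1 library left out (adjusted p up to 0.0753, limma). APX2 did not pass on the deposited scale (log2 fold change 0.05, adjusted p = 0.719, limma). Under each of those 2 scalings APX2 passed and was lower in XS11 (log2 fold change down to −0.38, adjusted p down to 0.00921, limma). XS11 and MH63 libraries are part of the line means above, so the comparisons of parents and of subspecies rest in part on the same libraries.

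The third comparison asked how far each gene varied among lines of the same subspecies, by a moderated F test over lines. Among the 7 XI lines APX7 was called, with 37.9% of all genes, and the difference between its highest and lowest line mean was 1.59 on the log2(FPKM + 1) scale (adjusted p = 0.00259, limma). At any fold 4 members passed, against 55.5% of all genes: APX7, APX4 (adjusted p = 0.000433), APX1 (0.0016) and APX2 (0.0298). APX3 did not (0.0992). After rescaling to the same total APX1 did not pass (0.34, adjusted p = 0.188, limma), and APX2 had an adjusted p of 0.0525 with no filter on low values and of 0.0819 and 0.061 without T1C-19 replicate 2 and replicate 3.

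Among the 6 GJ lines, APX3 and APX7 were called, with 28.7% of all genes. The difference between the highest and lowest line mean was 4.27 for APX3 (adjusted p = 0.00233, limma) and 1.56 for APX7 (adjusted p = 0.0115, limma). All 5 genes passed at any fold, against 42.9% of all genes, with APX2 at the smallest adjusted p (0.00016, limma) and a difference of 0.86. APX4 did not pass after rescaling to the same total (0.16, adjusted p = 0.394, limma) or with the reads on genes as the divisor (0.22, adjusted p = 0.238), and APX1 in neither (0.0509 and 0.0675). With no filter on low values both missed the threshold (0.0517 for APX1, 0.0523 for APX4). With 1 library left out, APX1 passed in 10 of 18 fits (adjusted p up to 0.0923, limma, without T202 replicate 3) and APX4 in 12 of 18 (up to 0.068, without XS11 replicate 1). The difference of APX3 was set by T202 at the top and KMD1 at the bottom. APX7 was the only member called within both subspecies and between them.

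Members also differed in how they moved with each other across lines. Over the 7 XI line means, Pearson's r was 0.90 between APX1 and APX3, 0.878 between APX3 and APX4, and 0.812 between APX1 and APX4. Over the 6 GJ line means the same pairs gave 0.539, 0.341 and 0.268, and APX2 against APX3 gave −0.679. APX7 had values between −0.332 and −0.115 with each of the others in XI lines. In GJ lines APX7 gave 0.492 with APX1 and 0.333 with APX2, but −0.233 with APX3 and −0.322 with APX4. These are descriptions over few related lines measured in the same libraries.

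Among 26492 genes, those whose line means followed a member most closely over the 13 lines were OS04G0683900 (r = 0.985) and OS09G0130800 (r = 0.984) for APX4. For APX3 it was OS10G0159700 (r = 0.951), for APX7 OS04G0518400 (r = 0.937), for APX2 an identifier that names no annotated locus (r = 0.924) followed by OS12G0232300 (r = 0.919), and for APX1 OS11G0621000 (r = 0.914). The third for APX7, OS04G0434600 (r = 0.924), carries an identifier close to that of APX7 itself.

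Ascorbate oxidized by these enzymes has to be regenerated and newly made, and 12 further identifiers were taken from general knowledge as genes of ascorbate recycling and synthesis. They could not be matched to an annotation here, so they are described only as a group and by identifier. Of the 12, 2 were listed at 0 in every library and 8 were above 0 in all 39. Between 8 and 9 were tested in each line/parent comparison, and 11 differences were called over the 11 comparisons, 6 higher and 5 lower. Over all genes the share called was 2.19% in T1C-19, 17.6% in HH1, 8.73% in XIY63, 4.13% in XXY63, 8.26% in SY63 and 5.54% in JY63 against MH63. Against XS11 it was 3.93% in KMD1, 13.4% in KMD2, 10.3% in CJ03, 3.05% in JH1 and 9.69% in T202. The median log2 fold change of the list lay between −0.36 in KMD2/XS11 and 0.34 in SY63/MH63, with medians of all genes between −0.03 and 0.05.

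OS12G0482700 separated the XI lines. It held 8.70 ± 1.90 FPKM in MH63, 7.87 ± 0.869 in T1C-19 and 5.83 ± 1.41 in HH1 (SD, n = 3), but 29.9 to 32.8 FPKM as means of the 4 conventional XI lines and 32.9 to 41.7 FPKM as means of the 6 GJ lines. It was called higher than MH63 in XIY63, XXY63, SY63 and JY63 (log2 fold changes 1.68 to 1.81) and in XS11 (2.15). MH63 and both GE lines made from it shared the low level.

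OS02G0707100 and OS06G0232600 accounted for 5 of the other 7 calls. In HH1/MH63, OS02G0707100 fell from 53.1 ± 9.18 to 7.22 ± 1.24 FPKM (log2 fold change −2.72, adjusted p = 0.000175, limma), while OS06G0232600 rose from 29.7 ± 14.2 to 68.9 ± 6.29 FPKM (1.28, adjusted p = 0.0109, limma; SD, n = 3). In KMD2/XS11 both moved the other way, OS02G0707100 from 12.1 ± 8.01 to 33.7 ± 12.7 FPKM (1.52, adjusted p = 0.0428, limma) and OS06G0232600 from 34.2 ± 9.64 to 11.4 ± 2.88 FPKM (−1.49, adjusted p = 0.00986, limma). OS06G0232600 was also lower in CJ03/XS11 (−1.13), and OS02G0707100 in XS11/MH63 (−2.21). The remaining calls were OS05G0116100 (−1.20) and OS12G0190000 (−1.01), both lower in KMD2. All these calls are on the deposited scale. Rescaling to the same total moved the median of all genes up by 0.335 in KMD2/XS11 and by 0.228 in CJ03/XS11. Shifts of that size would put OS05G0116100 and OS12G0190000 in KMD2, and OS06G0232600 in CJ03, under a fold of 2. In T1C-19, KMD1, JH1 and T202 no gene of the list was called.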

How the data were processed

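The authors aligned reads to IRGSP-1.0 with HISAT2 (2.09), counted them per gene with featureCounts (1.5.0-p3) and deposited FPKM values, one column per library. How reads shared by similar genes or by both strands were counted is not given in the sources used here. From the deposited FPKM, whole reads and gene lengths were recovered. The scale of each gene was chosen so that all its values were whole within 0.01 read. Wholeness is thus no separate check on the recovered reads.

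log2(FPKM + 1) was compared with limma 3.58.1 (R 4.3.3), with the variance trend taken over mean log2 recovered reads, on genes of at least 0.5 FPKM in at least 3 libraries, with Benjamini-Hochberg adjustment over all genes. Each line was fitted with its parent alone. Called means adjusted p below 0.05 and a fold of at least 2 or at most 0.5. A count model such as the study's was not run on the recovered reads; they were tested with voom, with the library factors of the deposited FPKM, as an alternative. In simulated pairs, 99% of 200 genes changed 4-fold were called. They were drawn from well-read genes of MH63, all with the same spread between replicates (dispersion 0.0166). That share does not describe genes with few reads or a wide spread, such as APX3, or smaller folds. All 8 members and the list of 12 genes were named in full, and for each member the genes with the highest correlation over line means. Members and lists were chosen with earlier results of these data known. No sequence is shown, since the members were not matched to the reference table (RefSeq, ASM3414082v1), which gives other identifiers.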

Additional observations from a re-analysis of the deposited data

How the results depend on the processing

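The 2 line/parent calls were 0 with no filter on low values and 1 with the default limma trend, with the replicate block or with the same total per library. They were 3 with a pseudocount of 0.1 or voom (APX3 in HH1/MH63 added) and with all 39 libraries in 1 model (APX7 in JH1/XS11 added). Leaving out 1 library gave 1 to 3. The 11 differences at any fold were 7 with no filter, 7 with the default trend, 5 with the same total, 7 with the reads on genes as the divisor, 8 with the replicate block, 14 with all 39 libraries in 1 model, 11 with a pseudocount of 0.1 or voom, and 6 to 13 with 1 library left out. This count and the reads on genes as divisor were chosen after seeing the data. That divisor moved the median of all genes by up to 0.243 (KMD2/XS11) and left every other count within 1.5 times. Without a minimum fold, calls were 11 for lines against parents, 2 in XS11/MH63, 17 for the 12 other genes, 4 among XI lines and 5 among GJ lines; the last 2 were added after seeing the data. Leaving out 1 library gave 1 in XS11/MH63 throughout, 1 to 2 among XI lines (2 without SY63 replicate 2) and 2 among GJ lines. GJ lines/XI lines kept 1 call, APX7, in every setting run. The replicate numbers did not pair the libraries: mean correlations of same-numbered libraries ran from −0.106 to 0.139. APX3 in T202/XS11 had an adjusted p of 0.0761 with no filter (limma). APX7 in XIY63/MH63 had 0.104 with no filter and 0.0511 with the replicate block, and APX7 in JH1/XS11 was called only with all 39 libraries fitted together (0.0045). The causes were not tested.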
